A study of Homo sapiens with 15 samples.

Results

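The p38 and stress MAPK cascade was followed through 10 genes: the upstream kinases MAP4K2 and MAP3K4, the MAPK kinases MAP2K3, MAP2K6 and MAP2K4, the MAPKs MAPK14, MAPK13 and MAPK8, and the p38-activated kinases MAPKAPK2 and MAPKAPK3. They were taken by gene symbol, and all 10 were found among the 12995 genes of the deposited tables. RNA was measured by QuantSeq FWD, a 3′ mRNA sequencing method that counts reads at the end of each transcript, in 5 groups of 3 libraries. OKF6 is a normal oral epithelial line, labelled wild type. SCC15 and SCC25 are oral cancer lines that were transduced with an inducible CRISPR-Cas9 construct against YBX1, sorted for GFP and mCherry and expanded. Their +YBX1 groups received no doxycycline and their -YBX1 groups received it at 1 µg/mL, and every group is labelled with a time of 3 days. The labels give the genotype of the -YBX1 cells as a YBX1 knockout and that of the untreated cells as wild type. Knockdown is used here, a term the authors also use. YBX1 reads remained in every -YBX1 library, which alone does not tell a knockdown from a knockout. Doxycycline itself and the loss of YBX1 cannot be told apart, since the treatment marks every -YBX1 library. The culture medium was K-SFM for OKF6 and SCC25 and DMEM with serum for SCC15, so line and medium cannot be told apart wherever SCC15 is compared with either. The OKF6 titles name no YBX1 construct, unlike those of the cancer lines. Line and transduction therefore cannot be told apart where OKF6 is compared with a cancer line.

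MAPK cascades are relays of kinases. A MAP4K or a GADD45 protein acts on a MAP3K, the MAP3K phosphorylates a MAP2K, and the MAP2K phosphorylates a MAPK on a threonine and a tyrosine. MAP2K3 and MAP2K6 are the kinases dedicated to p38, MAP2K4 acts mainly on JNK and can also act on p38, and MAPK14 (p38 alpha), MAPK13 (p38 delta) and MAPK8 (JNK1) are the MAPKs themselves. In squamous epithelium p38 delta is a prominent p38 isoform linked to keratinocyte differentiation, while p38 alpha is made in most cells. MAPKAPK2 (MK2) and MAPKAPK3 (MK3) carry the p38 signal to small heat shock proteins and to proteins that bind AU-rich mRNA. The cascade is switched by phosphorylation, which RNA levels do not measure.

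The 250 bases upstream of the transcript start are shown for the 2 pairs of related genes whose levels parted most between the lines, the p38 genes MAPK14 and MAPK13 and the p38 kinases MAP2K3 and MAP2K6. Sequences are from RefSeq, build GRCh38.p14, plus strand. Capitals mark CCAAT, the core of the Y-box after which YBX1 is named, GGGCGG, the GC box, and TGANTCA, the AP-1 element that JUN-containing dimers bind, each searched on both strands so that ATTGG and CCGCCC are also marked.
MAPK14, chr6:36027558-36027807: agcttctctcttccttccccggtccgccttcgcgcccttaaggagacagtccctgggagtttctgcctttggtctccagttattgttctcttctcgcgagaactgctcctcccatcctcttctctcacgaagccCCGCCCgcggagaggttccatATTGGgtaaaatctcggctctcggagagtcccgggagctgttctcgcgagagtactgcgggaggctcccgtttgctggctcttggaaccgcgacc
MAPK13, chr6:36130263-36130512: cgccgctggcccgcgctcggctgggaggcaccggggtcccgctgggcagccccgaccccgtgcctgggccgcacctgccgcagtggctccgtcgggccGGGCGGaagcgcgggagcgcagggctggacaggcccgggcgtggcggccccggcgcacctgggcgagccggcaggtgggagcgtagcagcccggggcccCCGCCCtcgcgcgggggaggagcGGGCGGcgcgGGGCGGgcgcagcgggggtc
MAP2K3, chr17:21284461-21284710: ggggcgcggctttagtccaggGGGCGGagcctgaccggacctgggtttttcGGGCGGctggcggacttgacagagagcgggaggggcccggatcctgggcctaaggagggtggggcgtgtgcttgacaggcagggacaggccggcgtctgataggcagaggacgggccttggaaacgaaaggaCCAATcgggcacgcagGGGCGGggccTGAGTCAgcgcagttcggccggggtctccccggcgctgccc
MAP2K6, chr17:69414447-69414696: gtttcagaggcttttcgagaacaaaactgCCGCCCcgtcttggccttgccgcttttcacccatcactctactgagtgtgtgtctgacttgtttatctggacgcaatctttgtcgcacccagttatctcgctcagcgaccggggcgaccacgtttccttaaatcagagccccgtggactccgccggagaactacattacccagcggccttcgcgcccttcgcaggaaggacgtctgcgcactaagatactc
The MAPK13 window was 84.4% G and C, above 99.4% of 35116 RefSeq promoters, against 59.2% in the neighbouring MAPK14. MAP2K3 had 70.4% and MAP2K6 55.6%, and the median of all promoters was 58.0%. RefSeq held a promoter for 9 of the 10 genes, and MAPKAPK2 had no entry. In the 9 windows nearest to the annotated starts CCAAT lay in 2 (MAPK14 and MAP2K3), where 32.0% of all promoters hold it. The GC box lay in all 9, where 42.6% of all promoters hold it, and TGANTCA in the MAP2K3 window alone, where 6.57% do. The motif matches are a description of letters and say nothing of binding.

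Reads counted on genes lay between 4075290 and 6118501 per library, with a median of 5689097. A level is given as log2 CPM, the log2 of reads scaled to a common library size. The value of 1 read was 0.138 to 0.226 CPM, and 3 reads, at most 0.677 CPM, were used as the limit of detection. Squamous epithelial markers (10 of 10 measured) summed to between 23549 and 30507 CPM in OKF6, to between 9260 and 18562 in SCC25 +YBX1 and to between 90.9 and 125 in SCC15 +YBX1. TP63 and GRHL2 were at 3 reads or fewer in every SCC15 library, and all 10 of these markers were lower in SCC15 than in SCC25 and OKF6 (limma, adjusted p under 0.05). The 7 measured mesenchymal or fibroblast markers summed to between 414 and 431 CPM in SCC15 +YBX1, between 2459 and 3235 in SCC25 +YBX1 and between 708 and 1697 in OKF6. That sum rests mostly on FN1 and VIM, and the single markers did not move one way. FN1, VIM and COL1A1 were lower in SCC15 than in SCC25, while CDH2 (4.15-fold), ZEB1 (11.7-fold) and LUM were higher, and TWIST1 did not pass. Against OKF6, VIM, CDH2, ZEB1 and LUM were higher in SCC15 and FN1 was lower. CDH2, ZEB1 and LUM were at 3 reads or fewer in every OKF6 library, and LUM in every SCC25 +YBX1 library. The 2 measured immune markers, CD14 and CD68, summed to at most 59.5 CPM in any library, and no endothelial marker was measured. The part of cell identity in the differences below was not tested.

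**Figure D1:**
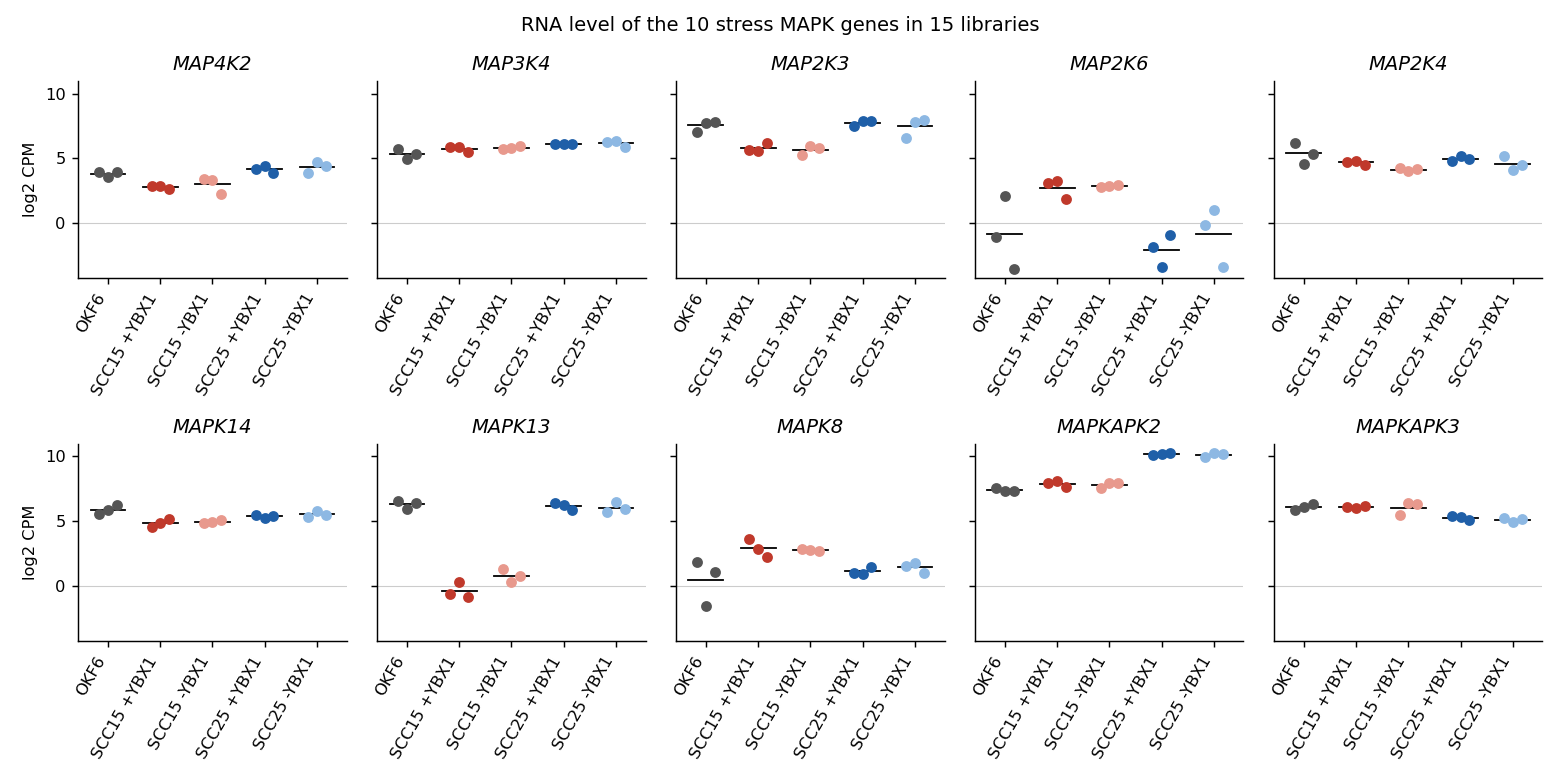
Each panel plots the log2 CPM of 1 gene on the vertical axis for the 3 libraries (points) and the mean (bar) of each of the 5 groups. MAPK13 was at 1.27 or less in SCC15 and at 5.70 or more elsewhere, MAPKAPK2 stood at 9.95 to 10.28 in SCC25 and at 7.29 to 8.06 elsewhere, and MAP2K6 was at 1.86 or more in SCC15 and in 1 OKF6 library.

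Between SCC15 and SCC25, both +YBX1, 6 of the 10 genes differed at a limma adjusted p under 0.05, where 43.6% of all genes did. MAP2K6 and MAPKAPK3 were higher in SCC15 (20% of all genes were), and MAPK13, MAPKAPK2, MAP2K3 and MAP4K2 were lower (23.6% of all genes were). The libraries of the 2 lines did not overlap for any of the 10 genes, where the share over all genes was 66.6%. Against OKF6, SCC15 differed in 7 genes (50.3% of all genes) and SCC25 in 3 (30.2% of all genes). SCC15 was higher than OKF6 at MAP2K6, MAPK8 and MAPKAPK2 (26.9% of all genes) and lower at MAPK13, MAP2K3, MAPK14 and MAP4K2 (23.4%). The 7 calls became 3, all lower, when SCC25 was left out of the fit, and 4, all lower, without SCC15 replicate 1 or 2. The shares over all genes given here are those of the full fit, so these smaller counts cannot be set against them. SCC25 was higher than OKF6 at MAPKAPK2 and MAP3K4 (18.9%) and lower at MAPKAPK3 (11.3%). The 6 genes without overlap between SCC15 and OKF6 stood against 54.4% of all genes, and the 4 between SCC25 and OKF6 against 43.3%. The median log2 change of the 10 genes was -0.46 for SCC15 minus SCC25 (median of all genes -0.01), -0.35 for SCC15 minus OKF6 (0.10) and 0.03 for SCC25 minus OKF6 (0.13). These comparisons share libraries with each other, and the labels do not say whether the libraries of a group came from separate cultures, so the p-values measure the spread between these libraries, which may be technical.

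**Figure D2:**
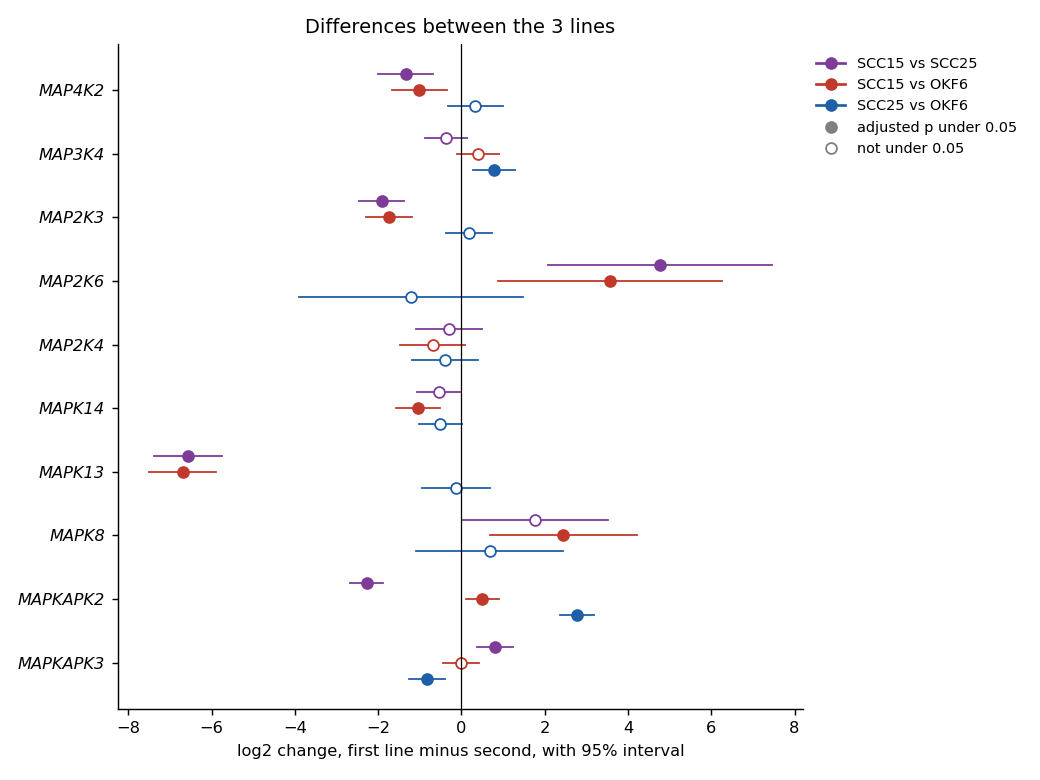
Points show the log2 change of each gene between 2 lines, with the 95% interval of limma, filled where the adjusted p was under 0.05. The 2 comparisons that include SCC15 place MAPK13 at -6.56 and -6.70 and MAP2K3 at -1.92 and -1.73, while SCC25 against OKF6 places MAPK13 at -0.14 and MAP2K3 at 0.19 and MAPKAPK2 at 2.77.

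MAP4K2 (ENSG00000168067, chr11:64784918-64803241, minus strand, hg38) encodes a germinal centre kinase at the head of the relay. Its level was 2.88, 2.87 and 2.68 log2 CPM in SCC15 +YBX1, 4.17, 4.40 and 3.89 in SCC25 +YBX1, and 3.95, 3.57 and 3.96 in OKF6. All 3 SCC15 libraries lay below all libraries of the other lines. The difference was -1.34 ± 0.30 (log2, SE, n = 3 per line) from SCC25, 2.54-fold lower (limma adjusted p = 0.00397), and -1.01 ± 0.30 from OKF6 (limma adjusted p = 0.0154). The OKF6 difference missed the threshold without SCC15 replicate 3 (limma adjusted p = 0.0543) and when SCC25 was left out of the fit (0.0515). SCC25 and OKF6 overlapped, with a log2 change of 0.33 and a 95% interval from -0.33 to 0.99.

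MAP3K4 (ENSG00000085511, chr6:160991727-161117385, plus strand) encodes the MAP3K that GADD45 proteins bind and open. It had the narrowest span of the 10 genes, with group means from 5.35 to 6.17 log2 CPM. OKF6 libraries were at 5.74, 4.95 and 5.35, SCC15 +YBX1 libraries at 5.91, 5.85 and 5.47, and SCC25 +YBX1 libraries at 6.12, 6.11 and 6.13. SCC25 lay above every library of the other lines. Its change from OKF6 was 0.77 ± 0.23 (limma adjusted p = 0.0272), which passed in 1 of 6 fits that each left out a library and missed the threshold when SCC15 was left out of the fit (0.0505) or the variance trend was dropped (0.0569). SCC15 differed from SCC25 by -0.38, with a 95% interval from -0.89 to 0.13, and from OKF6 by 0.40, with an interval from -0.11 to 0.91, neither past the threshold.

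MAP2K3 (MKK3, ENSG00000034152, chr17:21284672-21315232, plus strand) and MAP2K6 (MKK6, ENSG00000108984, chr17:69414697-69553865, plus strand) are the p38-selective MAPK kinases, and they moved in opposite directions in SCC15. MAP2K3 was at 5.68, 5.59 and 6.17 log2 CPM in SCC15 +YBX1, at 7.46, 7.90 and 7.85 in SCC25 +YBX1 and at 7.07, 7.76 and 7.82 in OKF6. The SCC15 libraries were all lower, by 1.92 ± 0.25 against SCC25, which is 3.79-fold (limma adjusted p = 0.000107), and 3.33-fold against OKF6 (limma adjusted p = 0.000172). SCC25 and OKF6 overlapped, and the 95% interval of their difference ran from -0.36 to 0.74.

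MAP2K6 was read 46, 56 and 23 times in SCC15 +YBX1, 1, 0 and 2 times in SCC25 +YBX1, and 2, 19 and 0 times in OKF6. SCC25 was at or under the limit of 3 reads in every library, and 1 OKF6 library stood apart from the other two. Over the group the 125 reads of SCC15 against 3 of SCC25 gave a ratio of 35.4 after scaling for depth, with an exact 95% interval from 11.8 to 174 that covers counting error only. MAP2K6 passed the test between SCC15 and SCC25 (limma adjusted p = 0.00891) and kept its call with any of the 6 libraries left out. Against OKF6 it was called higher in SCC15 (log2 change 3.56 ± 1.22, limma adjusted p = 0.0311) although the libraries overlapped, and the call was lost in 4 of the 6 fits without a library, those without OKF6 replicate 1 (limma adjusted p = 0.0552) or 3 (0.103) and those without SCC15 replicate 1 (0.0899) or 2 (0.0931), and also when SCC25 was left out of the fit (0.0553). The log2 change was 2.19 without OKF6 replicate 3, 5.05 without OKF6 replicate 2 and 2.69 with 2 reads added to each count.

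MAP2K4 (MKK4, ENSG00000065559, chr17:12020829-12143830, plus strand) did not pass the threshold in any comparison of lines with all libraries in the fit. The SCC15 +YBX1 libraries were at 4.76, 4.78 and 4.52 log2 CPM, SCC25 +YBX1 at 4.81, 5.21 and 4.93, and OKF6 at 6.2, 4.57 and 5.38, the widest spread among OKF6 libraries apart from MAP2K6 and MAPK8. The change between SCC15 and SCC25 was -0.30 with a 95% interval from -1.08 to 0.49. Against OKF6 SCC15 was at -0.70 (interval from -1.48 to 0.09, limma adjusted p = 0.127), and without OKF6 replicate 2 at -1.10 (0.00831). Of 86 pieces of the read length taken from the 3′ end of MAP2K4, 9 (10.5%) matched another place in hg38 as well, and 4 of 86 (4.65%) did for MAP2K3, while none did for the other 8 genes. Levels of these kinases could hold reads of the other places or lack reads that matched several places, and neither was tested.

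MAPK14 (ENSG00000112062, chr6:36027782-36111236) and MAPK13 (ENSG00000156711, chr6:36127809-36144524) lie side by side on the plus strand of chromosome 6, with 16572 bases between the end of MAPK14 and the start of MAPK13. MAPK13 was at -0.65, 0.34 and -0.89 log2 CPM in SCC15 +YBX1 (3, 7 and 3 reads). In SCC25 +YBX1 it was at 6.38, 6.22 and 5.89, and in OKF6 at 6.59, 5.90 and 6.41, that is 284 to 444 and 265 to 503 reads. The SCC15 libraries were at or just over the limit of detection, and the other lines did not overlap with them. The change was -6.56 ± 0.37 from SCC25, 94.6-fold lower (limma adjusted p = 3.44e-07), and -6.70 ± 0.37 from OKF6, 104-fold lower (limma adjusted p = 2.66e-07). At so few reads in SCC15 the size depended on the scaling: with quantiles set equal the log2 changes were -7.18 and -7.39. Among all genes, 3.52% had a larger absolute change between SCC15 and SCC25. From summed reads the ratio of SCC25 over SCC15 was 100.1 (exact 95% interval from 58.3 to 189, counting error only). The squamous epithelial markers were lower in the same libraries, and their part in the MAPK13 difference was not tested. Between SCC25 and OKF6 the change was -0.14, with a 95% interval from -0.95 to 0.67.

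MAPK14 was at 4.53, 4.87 and 5.14 log2 CPM in SCC15 +YBX1, at 5.49, 5.24 and 5.41 in SCC25 +YBX1 and at 5.58, 5.85 and 6.22 in OKF6. The 3 lines did not overlap, in the order OKF6, SCC25, SCC15. SCC15 was 2.06-fold lower than OKF6 (log2 change -1.04 ± 0.24, limma adjusted p = 0.00384). The differences of SCC15 from SCC25 (-0.54, limma adjusted p = 0.0916) and of SCC25 from OKF6 (-0.50, limma adjusted p = 0.134) did not pass. The first passed when OKF6 was left out of the fit (0.0361), and the second without OKF6 replicate 1 (0.0423). The neighbours on chromosome 6 both read lower in SCC15 than in OKF6, by 2.06-fold and 104-fold.

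MAPK8 (JNK1, ENSG00000107643, chr10:48306639-48439360, plus strand) had few reads. It was read 66, 42 and 30 times in SCC15 +YBX1, 10, 9 and 13 times in SCC25 +YBX1 and 18, 1 and 12 times in OKF6. Every SCC15 library was above every library of the other lines. SCC15 was 5.44-fold higher than OKF6 (log2 change 2.44 ± 0.80, limma adjusted p = 0.0253), a call lost without SCC15 replicate 1 (0.0961) or 2 (0.0638) and when SCC25 was left out of the fit (0.0579). The log2 change was 1.44 without OKF6 replicate 2, the library with 1 read, 3.13 without OKF6 replicate 1, and 1.74 with quantiles set equal. Against SCC25 the log2 change was 1.77, with a 95% interval from 0.0043 to 3.53, and missed the threshold (limma adjusted p = 0.0977). It passed when OKF6 was left out of the fit (0.00543), with quantiles set equal (0.013) and with 2 reads added to each count (0.0464).

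**Figure D3:**
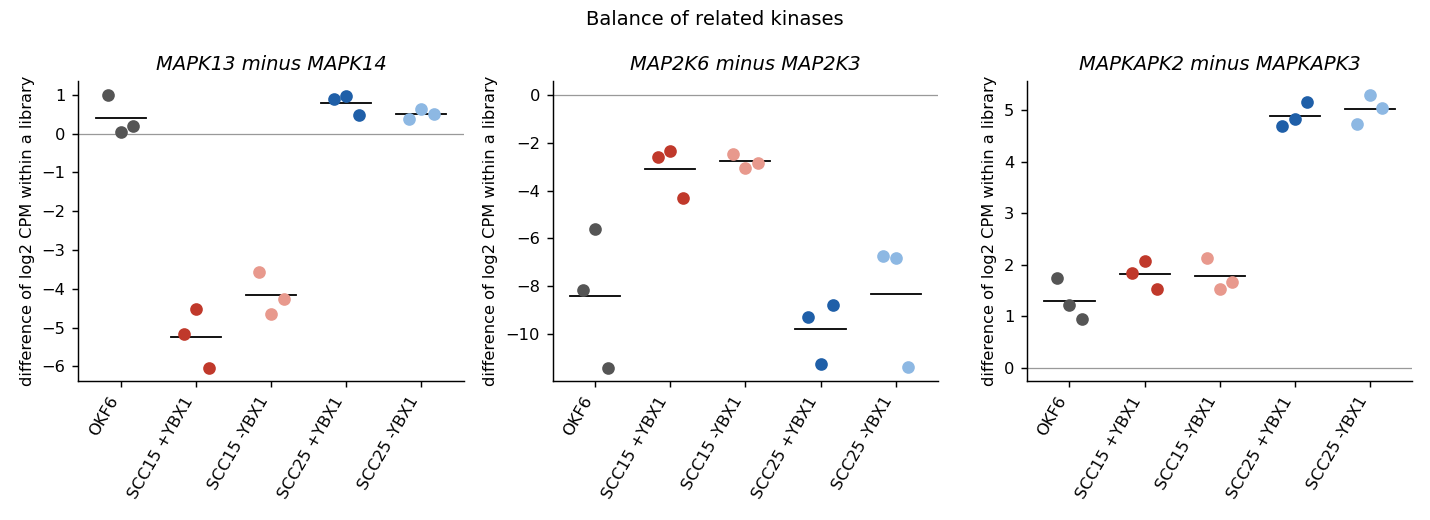
The vertical axis is the difference of log2 CPM between 2 related genes within the same library, with 3 libraries (points) and the mean (bar) per group. MAPK13 minus MAPK14 stood above 0 in OKF6 and SCC25 and at -3.56 or below in SCC15, MAP2K6 minus MAP2K3 was highest in SCC15, and MAPKAPK2 minus MAPKAPK3 was at least 4.70 in SCC25 and at most 2.13 elsewhere.

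MAPKAPK2 (ENSG00000162889, chr1:206684905-206734281, plus strand) was the member that set SCC25 most apart from the other lines. It was at 10.10, 10.14 and 10.28 in SCC25 +YBX1, at 7.97, 8.06 and 7.66 in SCC15 +YBX1 and at 7.58, 7.32 and 7.29 in OKF6. No 2 lines overlapped. SCC25 was 6.84-fold higher than OKF6 (log2 change 2.77 ± 0.18, limma adjusted p = 5.29e-06) and 4.85-fold higher than SCC15 (limma adjusted p = 2.99e-06), and both calls held with each library left out and under the other settings tried. Among all genes, 8.53% had a larger absolute change between SCC25 and OKF6. SCC15 was 1.41-fold higher than OKF6 (limma adjusted p = 0.0401), a call that was lost in 4 of the 6 fits without a library, those without OKF6 replicate 2 (0.0756) or 3 (0.105) and those without SCC15 replicate 1 (0.0951) or 2 (0.14), and also without a variance trend (0.0888) or with SCC25 left out of the fit (0.0926).

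MAPKAPK3 (ENSG00000114738, chr3:50611520-50649291, plus strand) went the other way in SCC25. It was at 5.41, 5.30 and 5.11 log2 CPM in SCC25 +YBX1, at 6.13, 5.99 and 6.14 in SCC15 +YBX1 and at 5.84, 6.12 and 6.34 in OKF6. All SCC25 libraries lay below all others. SCC25 was 1.77-fold lower than OKF6 (log2 change -0.82 ± 0.19, limma adjusted p = 0.0091), and SCC15 was 1.75-fold higher than SCC25 (limma adjusted p = 0.00623). SCC15 and OKF6 overlapped, with a log2 change of -0.01 and a 95% interval from -0.44 to 0.41.

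Within a library, depth and scaling cancel in the difference of 2 genes, although each level still depends on the reads a transcript end yields, so only changes of the balance between groups are compared. MAPK13 minus MAPK14 was 0.41 ± 0.51 (log2, SD, n = 3) in OKF6, 0.78 ± 0.27 in SCC25 +YBX1 and -5.25 ± 0.75 in SCC15 +YBX1. MAP2K6 minus MAP2K3 was -3.09 ± 1.07 in SCC15 +YBX1 against -9.78 ± 1.29 in SCC25 +YBX1, where MAP2K6 was at 0 to 2 reads and the value depends on the 0.5 reads the authors added. MAPKAPK2 minus MAPKAPK3 was 4.90 ± 0.24 in SCC25 +YBX1, 1.81 ± 0.28 in SCC15 +YBX1 and 1.3 ± 0.41 in OKF6. The first balance set SCC15 apart from the other lines and the last set SCC25 apart, without overlap between libraries.

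The other genes of the pathway were taken from a list of 63 by role, of which 57 were measured. Between SCC15 and SCC25, 26 of the 57 passed the threshold, 9 higher and 17 lower in SCC15, a share of 45.6% against 43.6% of all genes. The median log2 change of the 57 was -0.22. The count was 20 to 21 with a library left out and 23 to 36 under the other settings. Among MAP4Ks, MAP3Ks and their TAB partners 11 of 20 passed, 2 higher and 9 lower. TAOK3, a stress-activated MAP3K, was 7.14-fold lower in SCC15, and MINK1, a germinal centre kinase of the MAP4K group, was 4.44-fold lower. TAB1, a partner of the MAP3K TAK1 that can also bind p38 alpha, was 2.04-fold higher. Of 3 other MAPKs, MAPK12 (p38 gamma) was 2.63-fold higher, and MAP2K7, the JNK kinase, was 1.81-fold higher. Of 11 transcription factors 2 were higher and 2 lower. JUN was 2.05-fold higher. MEF2C was 39.7-fold higher (limma adjusted p = 0.000234), with 43 to 88 reads per SCC15 +YBX1 library and 0 to 3 in SCC25 +YBX1. The MAP2K7 call was lost without any of 3 libraries (SCC15 replicate 2 or 3, SCC25 replicate 3, limma adjusted p up to 0.0569). The JUN call was lost without any of 4 libraries (SCC15 replicate 1 or 3, SCC25 replicate 2 or 3, up to 0.126) and without a variance trend (0.0689).

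Of the 6 measured substrates of MK2, 3 (50% against 43.6% of all genes) were lower in SCC15 than in SCC25 and none higher, with a median log2 change of -1.50. ZFP36 was among them, 4.90-fold lower on few reads, 1 to 8 per SCC15 +YBX1 library and 6 to 24 per SCC25 +YBX1 library. HNRNPA0, LIMK1 and RIPK1 did not pass (log2 changes 0.14, -0.71 and -0.20). ZFP36L1, which binds AU-rich mRNA and promotes its decay, was 24.7-fold lower (log2 change -4.63 ± 0.23, limma adjusted p = 1.71e-07). HSPB1, the small heat shock protein HSP27, was 6.83-fold lower (limma adjusted p = 0.000396). Of the phosphatases 2 of 5 were higher and 1 lower, of the scaffold and GADD45 genes 1 of 6 was higher and 1 lower, and of the 5 other downstream kinases 1 was lower. The higher scaffold gene was MAPK8IP2, at 58.5-fold (limma adjusted p = 9.93e-05), the largest change among the 57 genes. It had 656 to 889 reads per SCC15 +YBX1 library and 2 to 29 in SCC25 +YBX1.

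**Figure D4:**
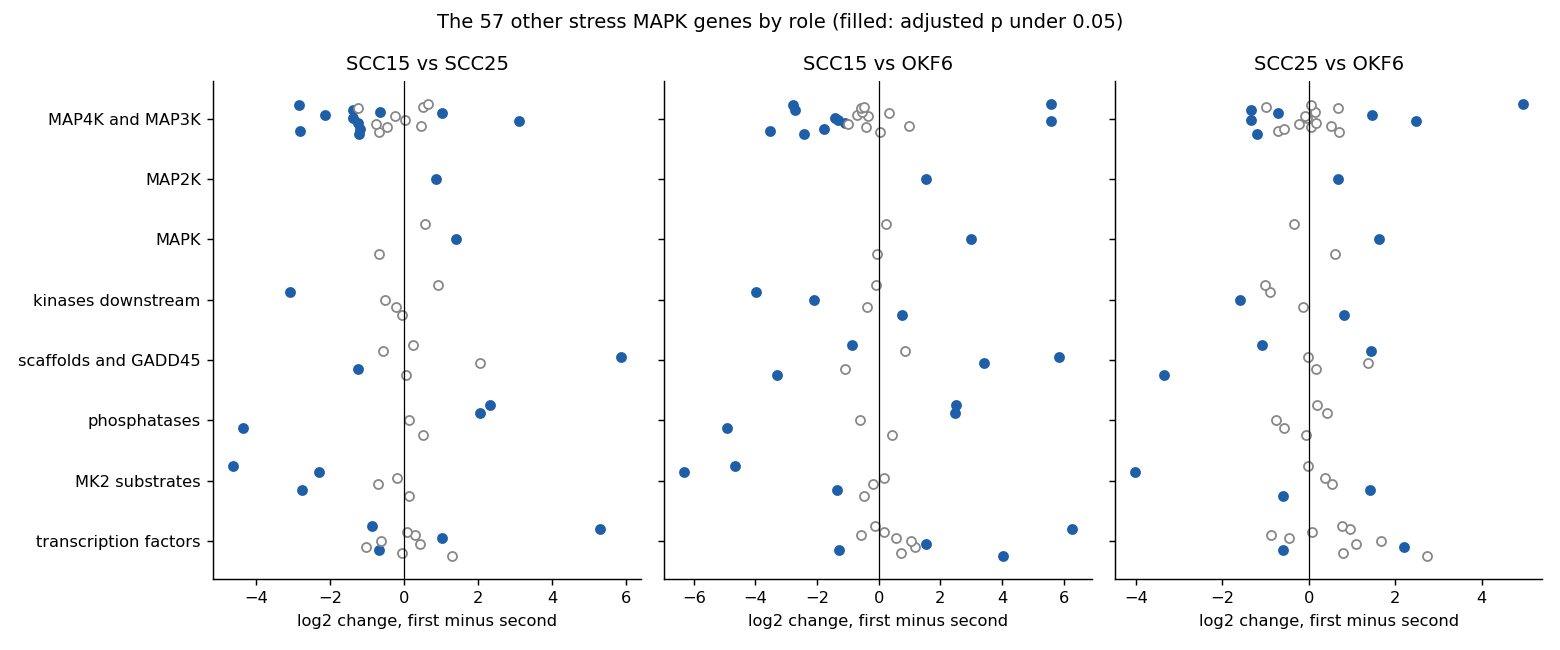
Each point is 1 of the 57 other stress MAPK genes, placed by its log2 change (horizontal axis) and its role (rows), for the 3 comparisons of lines, filled where the limma adjusted p was under 0.05. Among MAP4Ks and MAP3Ks, scaffolds and GADD45 genes, and transcription factors, calls lay on either side of 0 in all 3 comparisons. The filled points numbered 26, 29 and 19 from left to right.

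Against OKF6, 29 of the 57 other genes passed in SCC15, 12 higher and 17 lower (50.9% against 50.3% of all genes), and 19 in SCC25, 9 higher and 10 lower (33.3% against 30.2%). With a library left out the count ran from 24 to 34 in SCC15 and from 9 to 27 in SCC25. In SCC25 it was between 9 and 12 without OKF6 replicate 3 or any 1 of the SCC25 libraries. The shares over all genes given here are those of the fit with all libraries. MAPK12 was 8.05-fold higher in SCC15 and 3.06-fold higher in SCC25 than in OKF6, and MAPKAPK5, another kinase downstream of p38, was 1.67-fold and 1.75-fold higher. MAP2K7 was 2.89-fold higher in SCC15, and in SCC25 1.60-fold higher with a limma adjusted p of 0.0484 that missed the threshold in 5 of 6 fits without a library and in 7 of 9 other settings (up to 0.0927). GADD45A, an activator of MAP3K4, was 9.92-fold lower in SCC15 and 10.2-fold lower in SCC25 than in OKF6, while MAP3K4 itself read 1.32-fold higher without passing in SCC15 and 1.71-fold higher in SCC25. TAB3, a partner of TAK1, was 6.58-fold and 2.54-fold lower.

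ZFP36L1 was lower in SCC15 than in OKF6 (log2 change -4.65 ± 0.23, limma adjusted p = 1.40e-07), and its levels in SCC25 +YBX1 (8.54 to 9.22 log2 CPM) overlapped those of OKF6 (8.73 to 9.19). TAOK3 was 6.86-fold lower in SCC15 than in OKF6. ELK1, an ETS factor that JNK and p38 can phosphorylate, was 2.88-fold higher in SCC15 (limma adjusted p = 0.031), a call lost without any 1 of the SCC15 libraries (up to 0.0973), without a variance trend (0.0581) and when SCC25 was left out of the fit (0.0671). Without OKF6 replicate 1 its log2 change was 0.76 against 1.53 with all libraries. In SCC25, MKNK2, a kinase of eIF4E, was 3.04-fold lower than in OKF6 (limma adjusted p = 0.000404). MINK1 (2.74-fold higher in SCC25, limma adjusted p = 0.0295) and MAP3K1 (2.29-fold lower, limma adjusted p = 0.042) each passed in 1 of 6 fits without a library. The MINK1 call was also lost when SCC15 was left out of the fit (0.068), and the MAP3K1 call with a replicate block (0.0617) and without a variance trend (0.0555).

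The knockdown of YBX1 was checked first. YBX1 was at 6.74, 6.31 and 6.62 log2 CPM in SCC25 +YBX1 and at 5.26, 4.70 and 3.65 in SCC25 -YBX1, and at 5.11, 5.56 and 6.00 in SCC15 +YBX1 and 3.36, 3.71 and 3.13 in SCC15 -YBX1. All treated libraries lay below the untreated ones of their line, 75.2% lower in SCC25 and 77.5% lower in SCC15 on the geometric mean. With adjustment over 12995 genes no gene passed in either line, YBX1 included (limma adjusted p = 0.29 in SCC25 and 0.326 in SCC15), and voom on the recovered reads also called 0 genes. At an unadjusted p under 0.05 the counts were 401 genes (3.09%) in SCC25 and 302 (2.32%) in SCC15.

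None of the 10 stress MAPK genes had an unadjusted p under 0.05 in SCC25 (3.09% of all genes did), and 2 did in SCC15, MAPK13 and MAP2K4 (2.32% of all genes did). In SCC25 no gene of the 10 was without overlap between -YBX1 and +YBX1 libraries, where 7.31% of all genes were, and in SCC15 1 was, MAP2K4, where the share was 7.04%. MAP2K4 was at 4.27, 4.0 and 4.15 log2 CPM in SCC15 -YBX1 against 4.76, 4.78 and 4.52 in +YBX1. Its log2 change was -0.55 ± 0.25 (unadjusted p = 0.0479 and adjusted p = 1.00 by limma), with a lower value in 3 of 3 pairs of same-numbered libraries, and in SCC25 -0.39 ± 0.25 with a lower value in 2 of 3 pairs. MAPK13 was at 1.27, 0.27 and 0.78 in SCC15 -YBX1 (17, 7 and 11 reads) against -0.65, 0.34 and -0.89 in +YBX1. The libraries overlapped, and the log2 change was 1.18 ± 0.38 (unadjusted p = 0.00767 and adjusted p = 1.00 by limma), with 35 reads against 13 in all. Even after that difference MAPK13 minus MAPK14 stood at -4.16 ± 0.55 (SD, n = 3) in SCC15 -YBX1.

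The other 8 genes had 95% intervals that spanned 0 in both lines. Among those with narrow intervals, MAPKAPK2 was at 9.95, 10.24 and 10.20 log2 CPM in SCC25 -YBX1, a change of -0.04 with an interval from -0.40 to 0.31, and at 7.57, 7.91 and 7.95 in SCC15 -YBX1, a change of -0.08 with an interval from -0.44 to 0.27. MAP3K4 changed by 0.05 (interval from -0.33 to 0.42) in SCC25 and by 0.08 (-0.29 to 0.45) in SCC15, and MAPK14 by 0.14 (-0.28 to 0.56) and 0.09 (-0.33 to 0.51). Changes of 2-fold or more lay outside these intervals.

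MAPKAPK3 was at 5.21, 4.93 and 5.16 log2 CPM in SCC25 -YBX1 and at 5.45, 6.38 and 6.29 in SCC15 -YBX1, with changes of -0.17 and -0.05. MAP2K3 was at 6.56, 7.84 and 7.99 in SCC25 -YBX1, where replicate 1 stood below the others, and at 5.23, 5.94 and 5.81 in SCC15 -YBX1. MAP4K2 was at 3.87, 4.76 and 4.45 in SCC25 -YBX1 and at 3.42, 3.35 and 2.24 in SCC15 -YBX1. The intervals of these 3 genes reached a change of at most 0.93 in size, except that of MAP2K3 in SCC25, which reached -0.96.

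For the genes with few reads the intervals were wide. MAP2K6 had 4, 10 and 0 reads in SCC25 -YBX1 and 49, 46 and 52 in SCC15 -YBX1, and its change in SCC25 had an interval from -0.77 to 3.17. MAPK8 was at 1.53, 1.76 and 1.01 log2 CPM in SCC25 -YBX1 and at 2.83, 2.74 and 2.70 in SCC15 -YBX1, with changes of 0.31 (interval from -0.55 to 1.17) and -0.13 (-0.99 to 0.72). The order of the lines at these genes was the same with and without YBX1 knockdown, with MAP2K6 and MAPK8 higher in both SCC15 groups than in both SCC25 groups by their means.

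**Figure D5:**
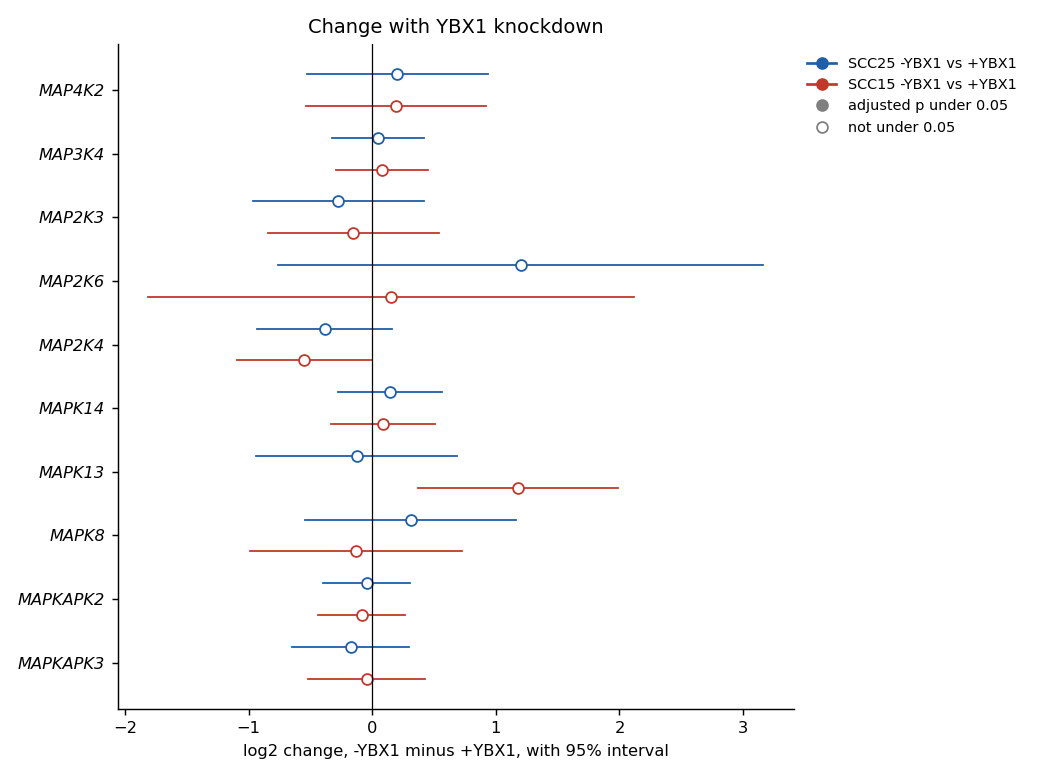
The log2 change with YBX1 knockdown is plotted for each gene in SCC25 (blue) and SCC15 (red), with the 95% interval of limma, and open points mark adjusted p of 0.05 or more. All points are open, and the intervals of MAPK13 and MAP2K4 in SCC15 are the only ones that leave out 0.

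Whether the lines responded differently was tested as the change in SCC25 minus that in SCC15. No gene of the 12995 passed (limma), and 294 (2.26%) had an unadjusted p under 0.05. Among the 10 genes this held for MAPK13, at -1.3 ± 0.53 (unadjusted p = 0.0286 and adjusted p = 1.00 by limma). Of the 57 other stress MAPK genes none passed in either line, and their median log2 change was -0.03 in SCC25 and 0.00 in SCC15. An unadjusted p under 0.05 was found for 1 of them in SCC25 (3.09% of all genes) and 2 in SCC15 (2.32%).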

How the data were processed

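The authors prepared 15 QuantSeq FWD libraries, 3 per group, sequenced as single-end reads, trimmed with Cutadapt, aligned to hg38 with HISAT2, counted on genes with featureCounts (versions not given in the sources used here) and normalised and filtered with limma. The deposited values are log2 CPM with 0.5 added to each read count, in 2 tables (lines and YBX1) that share 6 libraries within 5e-08. Taking the lowest value of a library as 0 reads returned whole reads for 100% of values within 0.01. The exact intervals of the ratios of summed reads cover counting error only, and no molecular identifiers of the reads were used here.

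Groups and replicate numbers were taken from the sample labels. Groups were compared on the log2 values with limma 3.58.1 in R 4.3.3 (lmFit, eBayes with a variance trend, all groups of a table in the fit, no replicate term), two-sided, with Benjamini-Hochberg adjustment over 12995 genes and a threshold of 0.05. Errors of log2 changes are standard errors and intervals are 95%. The steps were tested on simulated reads: of 100 genes changed by 1 on the log2 scale 57% were called between SCC15 and SCC25 and 61% with knockdown in SCC25, and 100% of 100 genes changed by 2 in either. Of the simulated calls, 7.65% between SCC15 and SCC25 and 4.73% with knockdown in SCC25 were genes that had not been changed. The simulation gave every gene the same spread between libraries and changed only genes above the median expression. Its shares therefore need not hold for the real libraries. YBX1 itself, 75.2% lower with knockdown in SCC25, was not called there. Same-numbered +YBX1 and -YBX1 libraries of a line were positively correlated in their deviations (in SCC25, r was 0.135 to 0.470, and in SCC15 it was 0.117 to 0.498, over 6497 genes above the median), the number being that of the labels. In each line 2 of the 3 -YBX1 libraries correlated best with the +YBX1 library of their own number, so a pairing by number is not established.

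The 10 genes, the 63 other pathway genes and the marker lists were chosen with earlier results of these data known. Of the other pathway genes, the text names per comparison up to 4 in each direction with the largest change among those called, without overlap and above the median expression. That median was applied to the mean over all groups, so genes high in SCC15 alone could fall below it. MEF2C, MAPK8IP2 and the remaining MK2 substrates are named outside this rule. Ratios of summed reads have exact Poisson intervals. Gene positions follow GENCODE 44 on hg38, 3′ end pieces were mapped with minimap2 2.31, promoters are those of RefSeq (GRCh38.p14), and figures used matplotlib 3.10.9 in Python 3.11.15. The alternatives were other scalings (medians of the libraries set equal, or their quantiles), other variance models (without the trend, robust, or voom on recovered reads), 2 reads added, a filter at the first quartile of expression, a replicate block, a fit of the compared groups alone, and each library left out. The block within each line was chosen after seeing the data.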

Additional observations from a re-analysis of the deposited data

How the results depend on the processing

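Between SCC15 and SCC25 the number of the 10 members called stayed at 6 with each library left out and lay between 5 and 8 under the other settings. The share of all genes called is given in this report for the main fits only. Whether the counts of other fits in this section differ from such a share therefore cannot be read here. Between SCC15 and OKF6 it was 3 with only the groups compared, and 4 to 7 with a library left out. Between SCC25 and OKF6 it was 2 or 3 under the settings and 2 to 4 with a library left out. With YBX1 knockdown it was 0 in every fit, and the cause of the changed counts was not tested. Over the members, 453 values kept direction and side of the threshold under the other settings, 8 lost a call, 4 gained one and 4 changed sign, and with a library left out these counts were 270, 16, 3 and 23. The counts include the knockdown comparisons, where no member was called in any fit. There only a change of sign could be counted, so the kept values overstate how firm the calls between lines are. Members that were not called changed sign as follows. MAPKAPK3 in SCC15 minus OKF6 was 0.15 with equal library medians, 0.14 with quantiles set equal, and -0.15 to 0.11 with a library left out. In SCC25 minus OKF6, MAP2K3 was -0.068 and MAPK8 -0.40 with quantiles set equal. With a library left out, MAP2K3 ran from -0.051 to 0.32, MAP2K4 from -0.80 to 0.010, MAPK13 from -0.33 to 0.0067, MAP2K6 from -2.58 to 0.28 and MAPK8 from -0.33 to 1.37. With knockdown in SCC25, MAP2K3 ran from -0.54 to 0.18, MAP3K4 from -0.047 to 0.19, MAPK13 from -0.33 to 0.041 and MAPKAPK2 from -0.10 to 0.047. With knockdown in SCC15, MAP2K3 ran from -0.30 to 0.059, MAP2K6 from -0.28 to 0.41, MAP3K4 from -0.056 to 0.16, MAP4K2 from -0.016 to 0.58, MAPK14 from -0.071 to 0.24, MAPK8 from -0.46 to 0.22, MAPKAPK2 from -0.20 to 0.035 and MAPKAPK3 from -0.22 to 0.25. Equal library medians moved the median of all genes for SCC15 minus SCC25 from -0.01 to 0.14 and for SCC15 minus OKF6 from 0.10 to 0.26, and equal quantiles moved that for SCC25 minus OKF6 from 0.13 to -0.05.

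The replicate block left the knockdown counts of members at 0, also within each line. Between lines, where same-numbered libraries correlated at -0.198 to 0.264 and share only a number, the block gave 6 members for SCC15 against SCC25, 6 for SCC15 against OKF6, where MAPKAPK2 was not called (adjusted p = 0.0696), and 3 for SCC25 against OKF6. An edgeR fit was planned and not run, since the deposited values are log2, and voom on recovered reads took its place. MAP2K6, MAPK8 and, in SCC15, MAPK13 rest on few reads. The filter the authors applied to genes could not be undone.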
